A study of Mus musculus with 24 samples.

Results

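The Ifi200 family is a group of neighbouring mouse genes that interferon induces. It was described here by every probe set that the platform annotation pairs with Ifi202b, Ifi209 or another gene whose current symbol begins with Ifi20. The rule found 7 genes of the 8949 that the annotation names, on 9 of the 12422 non-control probe sets of the array. Ifi202b is read by 94774_at, and by 161173_f_at together with LOC100044068. Ifi209 is read by 103615_at and Ifi207 by 92251_f_at. Ifi204 has 3 probe sets of its own, 98465_f_at, 98466_r_at and 161180_r_at. A shared probe set, 94224_s_at, is annotated to Ifi204, Ifi205, Ifi211 and Mndal, and another, 93321_at, to Ifi203, its pseudogene Ifi203-ps and LOC100862473. Ifi206 and Ifi208, and the related genes Aim2, Ifi213 and Ifi214, had no probe set in this annotation and were not analysed here. Ifi202b and Ifi209 were chosen from the background difference in these data, Ifi202b in the pancreatic infiltrate and Ifi209 in the spleen. Their values in every comparison that uses infiltrate or spleen arrays are therefore descriptions without a test.

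Proteins of this family carry a HIN domain, which binds DNA, and most also carry a pyrin domain, through which they join other proteins. Some members act in the sensing of DNA in the cytosol or nucleus, as Aim2 does when it starts an inflammasome. The p202 protein encoded by Ifi202b lacks the pyrin domain and is known as an inhibitor of Aim2, and Ifi202b has long been studied as a candidate gene in mouse lupus. Interferons raise the family through the interferon-stimulated response element (ISRE), which the factor complex containing Irf9 binds, and interferon gamma acts through the gamma-activated site (GAS).

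The 24 arrays cover 5 cell populations on 2 genetic backgrounds, C57Bl/6-H2g7/g7 (B6g7) and NOD. The B6g7 strain shares the H2g7 haplotype of NOD on a C57Bl/6 genome. Total pancreatic infiltrates, viable CD45+ cells from BDC2.5 mice, whose T cell receptor is transgenic, were measured on 3 arrays per background, at 25, 28 and 24 days of age in B6g7 and 25 days in NOD. The labels call the insulitis of the B6g7 mice aggressive and that of the NOD mice benign. CD4+ T cells high for the BDC2.5 clonotype were sorted from the pancreas and from the pancreatic lymph nodes, with 2 B6g7 and 3 NOD arrays at each site. Their ages were 25 and 22 days in B6g7 at both sites, 24, 24 and 25 days in the NOD pancreas and 24, 22 and 25 days in the NOD lymph nodes. Splenic NK cells, sorted as CD45+ Asialo GM1+, had 2 arrays per background. The B6g7 NK cells came from mice without a transgene, aged 6 and 3 weeks, and BDC2.5 appears in the description of the second NOD NK array. Total splenic leukocytes, viable CD45+ cells with no transgene or age stated, had 2 arrays per background. RNA was amplified in 1 round for spleen and in 2 rounds for every other population.

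Arrays differed in ways other than the groups. The gap between the 3′ and 5′ Gapdh control probe sets, which grows as RNA shortens, was 0.21 to 0.37 log2 units in spleen and 4.32 to 5.27 in NK cells, with the other populations between 2.56 and 4.87. The liver transcript Alb was above 8 on the log2 scale on 6 arrays, namely B6g7 infiltrates 1 and 2 and array 1 of each of the 4 T cell groups, against at most 4.90 elsewhere. Klrd1, an NK cell gene, read 8.87 to 9.93 in the NK arrays, where the NK cell gene Ncr1 read 5.12 to 6.08. The T cell gene Cd3g read 8.94 to 10.56 in the sorted T cells, and the B cell gene Ms4a1 9.96 to 10.41 in spleen. Markers of other cells were also present in the NK arrays, where Ms4a1 read 8.82 to 9.64 and Cd3g 5.6 to 8.62. The granulocyte gene S100a8 read 5.03 and 12.58 in the 2 NOD NK arrays and 9.04 and 11.29 in those of B6g7. The labels do not state whether the arrays of a group used different animals. Stated ages differ within the B6g7 infiltrates, the 4 T cell groups and the B6g7 NK cells, so not all arrays there came from 1 preparation. The p-values cover the spread between these arrays, which may be technical where ages are equal or unstated. In bulk samples, fewer cells of a type and less RNA per cell cannot be told apart.

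The promoters of the family differed in the interferon motif they hold, and 6 are shown to compare Ifi202b and Ifi209, which have no ISRE match, with relatives that do. The sequences are RefSeq's, from the reference assembly GRCm38.p6, which was built from C57BL/6J. Each is the 150 bases before the annotated start, read 5′ to 3′ on the gene's strand. Capitals mark the ISRE core, which is GAAA, any 2 bases and GAAA, or the GAS motif TTCNNNGAA on either strand, and in Ifi209 the stretch closest to the core of its relatives. On chromosome 1 the windows are chr1:173982845-173982994 (minus strand) for Ifi202b, chr1:173630709-173630858 (plus) for Ifi209, chr1:173535958-173536107 (minus) for Ifi214, chr1:173741810-173741959 (minus) for Ifi207, chr1:173942493-173942642 (minus) for Ifi203 and chr1:174031756-174031905 (minus) for Ifi205.
Ifi202b: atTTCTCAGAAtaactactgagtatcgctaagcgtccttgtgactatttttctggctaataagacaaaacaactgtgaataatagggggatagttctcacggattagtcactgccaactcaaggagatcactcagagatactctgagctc
Ifi209: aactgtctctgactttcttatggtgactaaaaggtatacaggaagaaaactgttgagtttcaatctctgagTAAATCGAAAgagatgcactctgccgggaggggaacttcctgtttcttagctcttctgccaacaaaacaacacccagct
Ifi214: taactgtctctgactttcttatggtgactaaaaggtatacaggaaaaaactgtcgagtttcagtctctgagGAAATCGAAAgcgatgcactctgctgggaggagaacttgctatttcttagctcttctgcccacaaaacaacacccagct
Ifi207: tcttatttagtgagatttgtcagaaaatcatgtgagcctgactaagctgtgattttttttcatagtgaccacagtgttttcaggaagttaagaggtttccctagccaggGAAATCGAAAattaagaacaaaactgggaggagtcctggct
Ifi203: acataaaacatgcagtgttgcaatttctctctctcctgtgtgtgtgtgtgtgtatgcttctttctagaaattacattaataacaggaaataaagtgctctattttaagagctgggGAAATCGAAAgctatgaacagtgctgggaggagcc
Ifi205: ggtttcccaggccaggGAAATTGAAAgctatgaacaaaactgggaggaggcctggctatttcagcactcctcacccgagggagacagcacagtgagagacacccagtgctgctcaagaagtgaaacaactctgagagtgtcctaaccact

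Over the longer window that runs from 250 bases before to 50 bases after the start, 9 of the 12 family genes in the promoter table held the ISRE core. Counted by window, it was in 10 of their 14. By comparison, 1131 of 32851 promoter windows of all genes held it, or 3.44%. The family genes with the core were Ifi203, Ifi205, Ifi206, Ifi207, Ifi208, Ifi211, Ifi213, Ifi214 and Mndal, and those without were Ifi202b, Ifi209 and Aim2. In Ifi209 the closest stretch, TAAATCGAAA, begins at position -79 relative to the start and differs from GAAATCGAAA by G1T, counted from the first base of the stretch. Ifi214 has GAAATCGAAA at that position, and the 2 windows were 95.3% identical, whereas Ifi209 was 47.2% to 57.7% identical to the other family windows. Ifi202b was 48.5% to 57.1% identical to every other family window. Its window held the only GAS match of the family, TTCTCAGAA, which begins at position -148. A GAS match was held by 2726 of all windows, or 8.3%. These letters are a description of the reference sequence, not of bound sites. Ifi204 and Ifi203-ps are not in the table, and NOD sequence was not used here.

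Ifi202b was high in 1 group only, the total infiltrate of NOD pancreas. On 94774_at the NOD infiltrates read 4.79, 4.81 and 4.96 on the log2 scale, and the B6g7 infiltrates 2.78, 3.45 and 3.25. In 5.98% of all probe sets the NOD infiltrates lay above those of B6g7 without overlap. The highest Ifi202b value outside the NOD infiltrates was 3.94, in the second NOD NK array. The infiltrate arrays chose the gene, and the share of probe sets with 1 group above all other arrays was not counted. The means were 4.85 ± 0.10 in NOD and 3.16 ± 0.34 in B6g7 (SD, n = 3 each), a difference of -1.69 (B6g7 minus NOD, standard error 0.16). The labels' serial codes form runs of neighbouring arrays, and within the 2 runs that held both backgrounds the difference was -2.02 and -1.71. With every array showing liver transcripts left out, and so a single B6g7 infiltrate, it was -1.60. The submitters' notes name RMA processing for all 3 B6g7 infiltrates and for no NOD infiltrate, so the stated processing and the background cannot be told apart there.

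**Figure D1:**
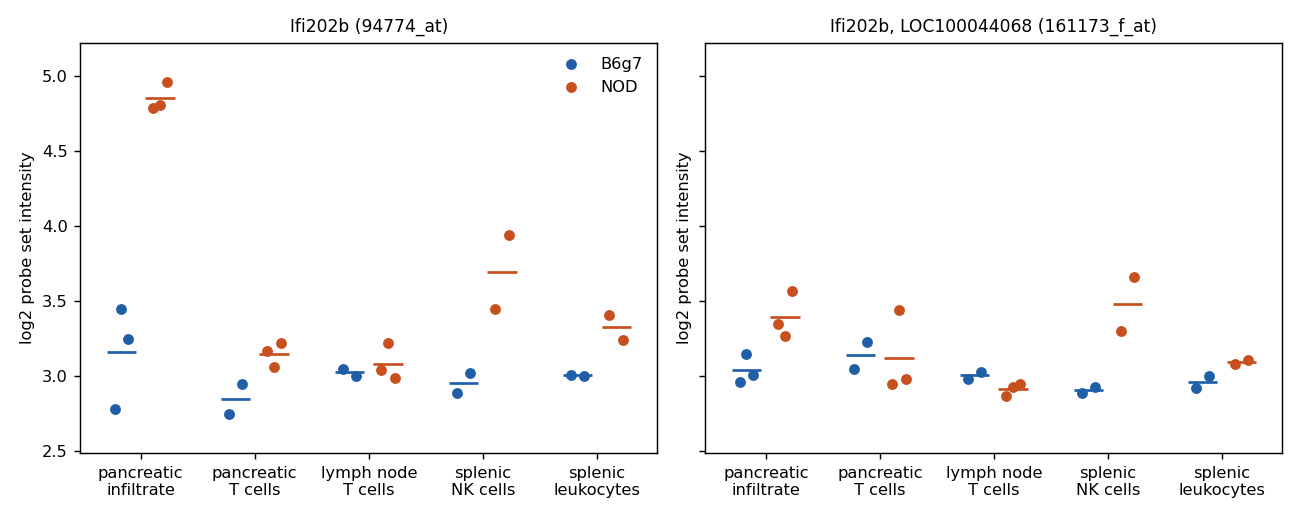
Log2 probe set intensity of Ifi202b on 94774_at (left) and on 161173_f_at, shared with LOC100044068 (right), by cell population; points are arrays, blue for B6g7 and orange for NOD, and bars are group means. On the left the 3 NOD infiltrates read 4.79 to 4.96, and the infiltrate arrays chose this gene. On the right the NOD NK cells and NOD infiltrates lie above most others within a range of 2.87 to 3.66.

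T cells sorted from the same tissue did not show this level. NOD pancreatic T cells read 3.17, 3.06 and 3.22 for Ifi202b, and those of B6g7 2.75 and 2.95. The total NOD infiltrate was thus 1.71 (standard error 0.16) above the NOD pancreatic T cells, against 0.31 (0.17) in B6g7. Lymph node T cells read 3.04, 3.22 and 2.99 in NOD and 3.05 and 3.00 in B6g7, with overlapping arrays. In splenic leukocytes the values were 3.41 and 3.24 in NOD and 3.01 and 3.00 in B6g7, without overlap, as for 10.6% of all probe sets lower in B6g7, at a difference of -0.32 (0.19).

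Splenic NK cells of NOD came second in the order of group means. Their Ifi202b values were 3.45 and 3.94, and those of B6g7 NK cells 2.89 and 3.02. The arrays did not overlap, with NOD higher, as for 15.3% of all probe sets, and the difference of -0.74 (standard error 0.19) did not pass after adjustment over all probe sets (limma, adjusted p = 0.528). With the NK and T cell populations averaged, which leaves out the arrays that chose the gene, the difference was -0.36 (0.10, limma adjusted p = 0.213). Below NOD NK cells at 3.69 and NOD spleen at 3.33, the arrays of neighbouring groups overlapped, from B6g7 infiltrate at 3.16 down to B6g7 pancreatic T cells at 2.85. The 17 measured genes of a list that leukocytes should not express, such as Crygd, had group means from 2.96 to 7.59 with a 90th percentile of 6.22. All 10 group means of Ifi202b lay at or under that percentile, so readings of this size also come from genes not expected in these cells.

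The other Ifi202b probe set moved over a smaller range. On 161173_f_at the NOD infiltrates read 3.35, 3.27 and 3.57 and the B6g7 infiltrates 2.96, 3.15 and 3.01. The NOD arrays lay above those of B6g7, as for 5.98% of all probe sets, at a difference of -0.36 (B6g7 minus NOD, standard error 0.13). In NK cells the values were 3.30 and 3.66 in NOD and 2.89 and 2.93 in B6g7, a difference of -0.57 (0.17, limma adjusted p = 0.910). Across the 10 group means the 2 probe sets correlated at 0.75, a description over groups that share arrays and scale.

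Markers of other cells were present beside the Ifi202b values. NK cell markers were lower in the NOD infiltrates, with summed intensities of 354 to 662 against 958 to 1569 in B6g7. All 6 measured were higher in B6g7 in the mean, by a median of 1.27, and 2 passed, the NK receptor genes Klra3 at 1.84 (standard error 0.29, limma adjusted p = 0.00826) and Klrd1 at 1.55 (0.30, adjusted p = 0.0359). Of the 8 macrophage genes, such as Csf1r and Adgre1, none differed between the infiltrates by the test, and their summed intensity was 1556 to 3310 in NOD and 1082 to 2023 in B6g7. The 7 granulocyte genes summed to 707 to 1155 in NOD infiltrates and 552 to 606 in B6g7, without overlap, and none passed. In NK cells the granulocyte sum was 364 and 20764 in NOD, where the array with the higher sum also had the higher Ifi202b, and 2396 and 9082 in B6g7, where Ifi202b read 2.89 and 3.02. The part of these cells in the Ifi202b values was not tested. None of the markers read 0 on any array, but neither did any other probe set, the smallest intensity being 5.70. A reading above 0 therefore does not show that a cell type was present.

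The genes whose group means most resembled Ifi202b were taken by correlation over the 10 groups among 3485 genes that varied by at least 1 log2 unit. They were Ltc4s, which makes leukotriene C4 (0.91), the ephrin ligand Efnb2 (0.90), the membrane protein Emp1 (0.89), Pmp22 (0.88) and the lipoxygenase Alox15 (0.87). All 5 were highest in the NOD infiltrate, as Ltc4s was at 7.46 against a median of 5.67 over groups. That shared peak largely follows from the ranking, since Ifi202b itself was high in that group only.

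Ifi209 had its single high group elsewhere, in the spleen of B6g7. B6g7 splenic leukocytes read 6.66 and 6.57 on 103615_at, and those of NOD 4.77 and 4.58. The B6g7 spleens were above the NOD spleens in 15.4% of all probe sets. The highest Ifi209 value outside the B6g7 spleens was 5.30, in a NOD lymph node T cell array. The spleen arrays chose the gene, and the share of probe sets with 1 group above all other arrays was not counted. The means were 6.61 ± 0.06 and 4.68 ± 0.13 (SD, n = 2 each), a difference of 1.93 (B6g7 minus NOD, standard error 0.22). In the total infiltrates the values were 4.25, 4.48 and 4.83 in B6g7 and 4.40, 4.79 and 4.71 in NOD, which overlap. The background difference in infiltrate minus that in spleen was thus -2.05 (standard error 0.28). The notes name RMA for both NOD spleens and for neither B6g7 spleen, so here too stated processing and background cannot be told apart. The spleens were also the arrays amplified in 1 round, on both backgrounds.

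**Figure D2:**
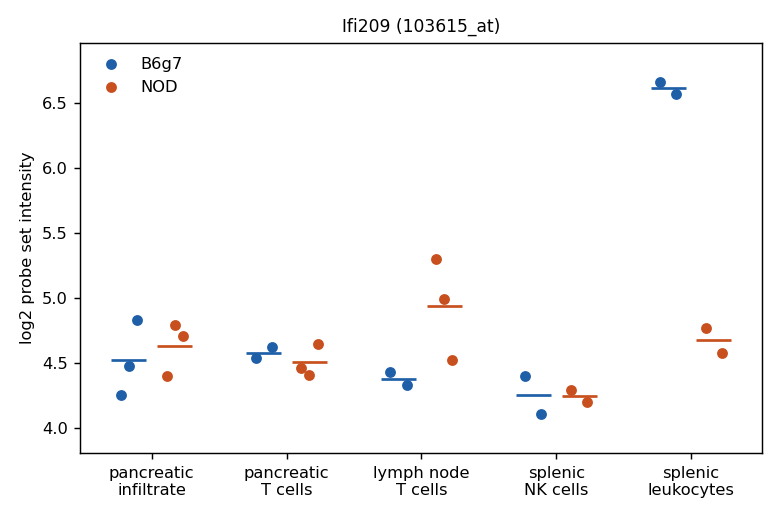
Log2 probe set intensity of Ifi209 (103615_at) by cell population; points are arrays, blue for B6g7 and orange for NOD, and bars are group means. The 2 B6g7 spleen arrays read 6.57 and 6.66, and the spleen arrays chose this gene. NOD lymph node T cells come next at 4.52 to 5.30.

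Elsewhere Ifi209 lay near the level of the absent-gene list, with 9 of 10 group means at or under its 90th percentile. NOD lymph node T cells, second in order, read 5.30, 4.99 and 4.52 and those of B6g7 4.43 and 4.33. The arrays did not overlap, as for 9.46% of all probe sets lower in B6g7, and the difference of -0.56 (standard error 0.20) did not pass (limma, adjusted p = 0.550). NK cells read 4.40 and 4.11 in B6g7 and 4.29 and 4.20 in NOD, and pancreatic T cells 4.54 and 4.62 in B6g7 and 4.46, 4.41 and 4.65 in NOD. From NOD lymph node T cells at 4.94 down to NOD NK cells at 4.24, neighbouring groups overlapped.

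Markers of several cell types differed in level between the spleens without passing the test. The 6 measured B cell markers, such as Ms4a1, summed to 6763 and 6887 in B6g7 spleen and 6048 and 6198 in NOD spleen, which do not overlap. The 6 T cell markers summed to 1462 and 1082 in B6g7 and 2135 and 1713 in NOD, and all 6 were lower in B6g7 in the mean, by a median of -0.56. The 7 granulocyte markers had a median difference of 0.91, with overlapping sums of 877 and 2862 in B6g7 and 1223 and 537 in NOD. In the infiltrates the B cell markers summed to 2275 to 2894. Of the 5 genes most like Ifi209 over the 10 group means, 3 were of B cells, a pair of immunoglobulin kappa variable segments (0.88 and 0.82) and the surface receptor Cd72 (0.80). The others were the transcription regulators Tgif1 (0.86) and Nab2 (0.82). All 5 were highest in B6g7 spleen, as Cd72 was at 8.98 against a median of 3.54. That shared peak largely follows from the ranking, since Ifi209 itself was high in that group only. The part of B, T or granulocyte cells in the Ifi209 values was not tested.

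Ifi204, which encodes the DNA sensor and growth regulator p204, was among the brighter members and had another order of groups. On 98465_f_at NOD lymph node T cells read 9.25, 8.65 and 8.69, and those of B6g7 7.37 and 7.55. The NOD arrays lay more than 1 log2 unit above those of B6g7, without overlap as for 9.46% of all probe sets, a difference of -1.40 (standard error 0.39) that did not pass (limma, adjusted p = 0.298; from 0.234 to 0.9997 as each array was left out). The shared probe set 94224_s_at, which also reads Ifi205, Ifi211 and Mndal, gave 9.0, 8.41 and 9.11 in NOD and 7.30 and 7.90 in B6g7 lymph node T cells. That difference was -1.24 (0.50, limma adjusted p = 0.635). With Ifi209, 3 of the 9 members had an unadjusted p under 0.05 in lymph node T cells, against 6.96% of all probe sets. None of the 9 passed, and 0.129% of all probe sets did. With 1 B6g7 and 2 NOD arrays remaining once those showing liver transcripts were left out, the difference was -1.12 on 98465_f_at and -0.86 on 94224_s_at.

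Within NOD, pancreatic T cells read lower than lymph node T cells on the same probe sets. The pancreatic values were 8.56, 6.93 and 8.16 on 98465_f_at and 8.19, 6.07 and 8.41 on 94224_s_at. Array 2 was the lowest on both, and no pancreatic array reached a lymph node array on either, as for 6.34% of all probe sets. On 94224_s_at this was close to a tie, since the highest pancreatic and the lowest lymph node array both read 8.41. The differences were -0.98 (standard error 0.35, limma adjusted p = 0.155) and -1.28 (0.45, adjusted p = 0.152). With the replicate number as a block, a pairing that the labels do not state, the limma adjusted p values were 0.0709 and 0.0657. No member passed in this comparison, in which 0.0161% of all probe sets did, or between the sites in B6g7, where no probe set did. There no member had an unadjusted p under 0.05, against 0.652% of all probe sets. The background difference in pancreatic T cells exceeded that in lymph node T cells by 1.60 (0.55) on 98465_f_at and by 1.55 (0.71) on 94224_s_at, with an adjusted p of 0.998 in limma for both, and no probe set passed in that test.

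In the other populations these probe sets passed between backgrounds in none. B6g7 pancreatic T cells read 8.67 and 7.49 on 98465_f_at and 8.27 and 7.46 on 94224_s_at, with arrays overlapping those of NOD on both. Infiltrates read 8.86, 8.37 and 8.39 in B6g7 and 8.02, 8.49 and 7.83 in NOD on 98465_f_at. NK cells read 7.44 and 7.52 in B6g7 and 7.96 and 7.60 in NOD, and spleens 7.89 and 7.71 against 8.45 and 8.22. In NK cells and spleens the arrays did not overlap, with B6g7 lower, as for 15.3% and 10.6% of all probe sets. On 94224_s_at infiltrates read 8.45, 7.65 and 8.05 in B6g7 and 7.63, 7.9 and 7.55 in NOD, with overlap, and NK cells 7.5 and 6.97 in B6g7 and 8.17 and 7.74 in NOD, without overlap, as for 15.3% of all probe sets lower in B6g7. The spleens were highest, at 9.70 and 9.62 in B6g7 and 9.96 and 9.30 in NOD, against at most 9.11 elsewhere. They were also the only arrays amplified in 1 round, and the share of probe sets highest in spleen was not counted. The remaining Ifi204 probe sets ran from 4.17 to 5.52 (161180_r_at) and from 2.70 to 4.19 (98466_r_at), at or under the absent-gene percentile in all groups. The 3 Ifi204 probe sets did not share a pattern, with correlations over the group means of -0.52, 0.32 and 0.41.

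**Figure D3:**
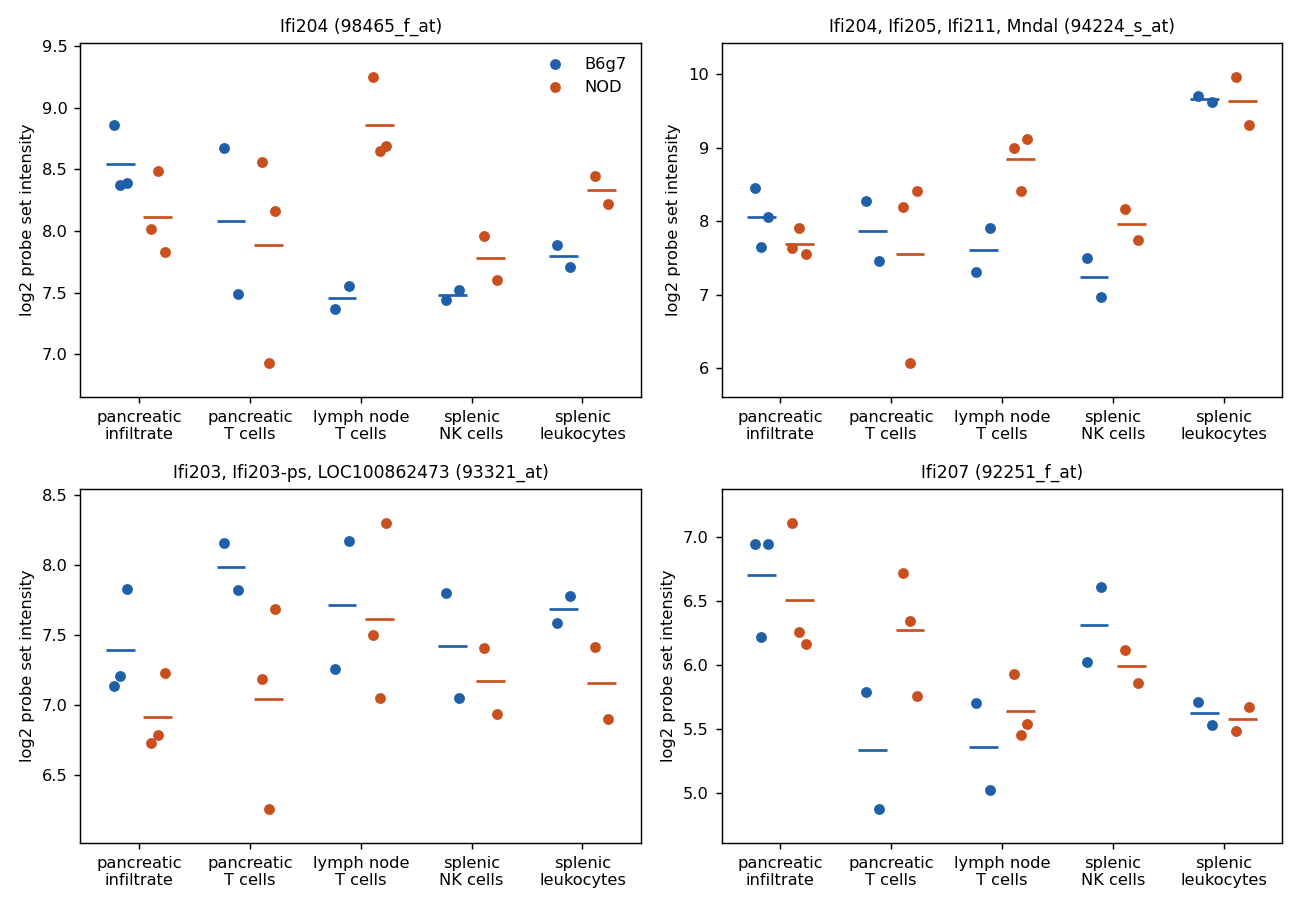
Log2 probe set intensity of 98465_f_at (Ifi204), 94224_s_at (Ifi204, Ifi205, Ifi211 and Mndal), 93321_at (Ifi203 and relatives) and 92251_f_at (Ifi207) by cell population; points are arrays, blue for B6g7 and orange for NOD, and bars are group means. NOD lymph node T cells lie above those of B6g7 in both upper panels, and the y axes differ between panels.

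Ifi207, a nuclear member with a pyrin domain, was highest in the total infiltrates. Its values there were 6.95, 6.22 and 6.95 in B6g7 and 7.11, 6.26 and 6.16 in NOD. B6g7 pancreatic T cells read 5.79 and 4.87, below all B6g7 infiltrate arrays as for 15.3% of probe sets, and NOD pancreatic T cells 6.72, 6.34 and 5.76, of which the first 2 lay within the range of the NOD infiltrates and the last below it. Ifi207 was the 1 of 6 tested members that passed between B6g7 infiltrate and B6g7 pancreatic T cells, by 1.37 (standard error 0.35, limma adjusted p = 0.0454), where 2.71% of all probe sets passed. The call was lost without either B6g7 pancreatic T cell array, at 1.83 without array 1 (adjusted p = 0.0548) and 0.92 without array 2 (0.306), and without infiltrate array 1 or 3. Leaving out the arrays that carried liver transcripts sets 1 B6g7 infiltrate against 1 B6g7 pancreatic T cell array, which differed by 2.07. None of the 6 tested members passed between NOD infiltrate and NOD pancreatic T cells, where 3.23% of probe sets did.

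Between backgrounds, Ifi207 read lower in B6g7 than in NOD pancreatic T cells by -0.94 (standard error 0.35, limma adjusted p = 0.556), with overlapping arrays. Lymph node T cells read 5.70 and 5.02 in B6g7 and 5.93, 5.45 and 5.54 in NOD. NK cells read 6.02 and 6.61 against 6.12 and 5.86, and spleens 5.71 and 5.53 against 5.48 and 5.67. In these populations the arrays overlapped.

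The probe set of Ifi203, a nuclear member of the family, was higher in B6g7 in the mean of every population and passed in none. In pancreatic T cells 93321_at read 8.16 and 7.82 in B6g7 and 7.19, 6.26 and 7.69 in NOD. The B6g7 arrays were above all NOD arrays, as for 6.13% of probe sets, by 0.95 (standard error 0.41, limma adjusted p = 0.705). In spleen the values were 7.59 and 7.78 in B6g7 and 7.42 and 6.90 in NOD, without overlap, as for 15.4% of all probe sets higher in B6g7, at 0.52 (0.45). Infiltrates overlapped at 7.14, 7.21 and 7.83 in B6g7 and 6.73, 6.79 and 7.23 in NOD. NK cells, at 7.80 and 7.05 against 7.41 and 6.94, and lymph node T cells, at 7.26 and 8.17 against 7.50, 7.05 and 8.30, also overlapped.

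Over the 5 background comparisons no tested member passed. In infiltrate and spleen 6 members were tested, with no unadjusted p under 0.05, against 4.19% and 1.25% of all probe sets, of which 0.274% and 0.0725% passed. In pancreatic T cells and NK cells all 9 were tested, and 2 in each had an unadjusted p under 0.05, against 6.44% and 1.26% of all probe sets. After adjustment 0.145% and 0.0483% of all probe sets passed. The average of T and NK cells gave 2 of 9 with an unadjusted p under 0.05, against 6.31% of all probe sets, and none of the 9 but 0.555% of all probe sets passed. The test of a background difference that is unlike in infiltrate and spleen was passed by 0 of 6 tested members and 0.0403% of all probe sets.

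**Figure D4:**
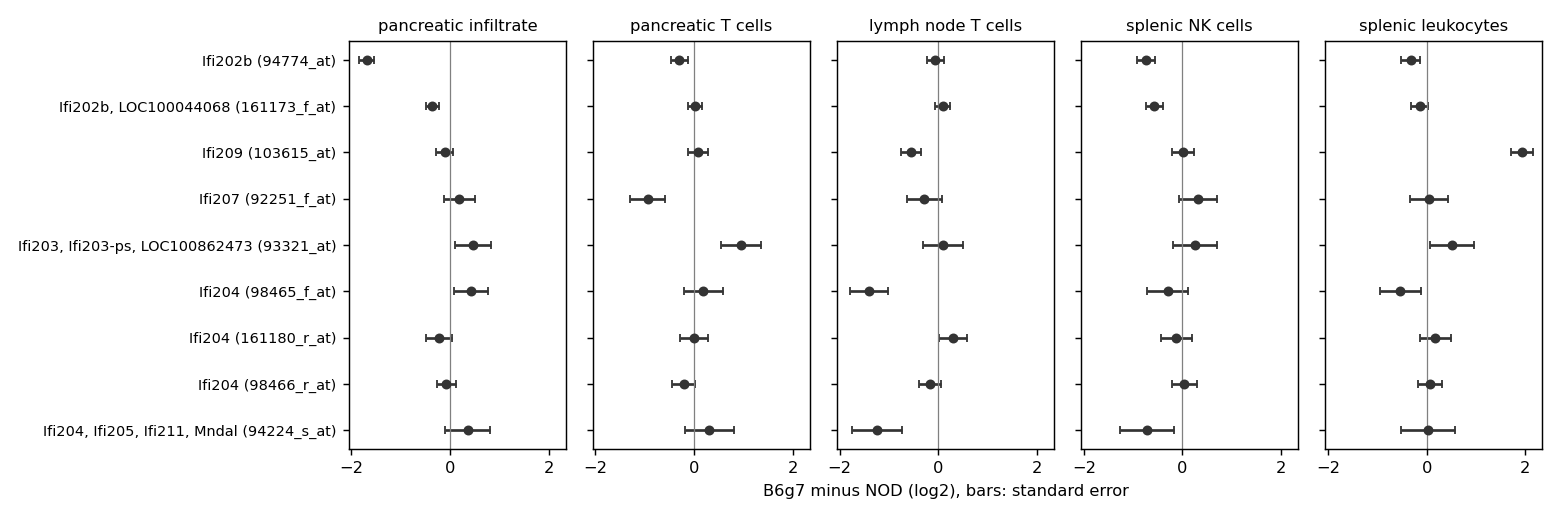
Background difference (B6g7 minus NOD, log2) of the 9 probe sets in the 5 cell populations; points are fitted differences and bars their standard errors. Ifi202b in infiltrate (-1.69) and Ifi209 in spleen (1.93), the values that chose these genes, lie farthest from 0, followed by 98465_f_at in lymph node T cells (-1.40).

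NK cells and lymph node T cells of NOD differed in 3 of the 9 members, against 10.1% of all probe sets. Both Ifi202b probe sets were higher in NK cells, by 0.61 on 94774_at (standard error 0.17, limma adjusted p = 0.0337) and 0.56 on 161173_f_at (0.15, adjusted p = 0.0244). Ifi209 was lower in NK cells, by -0.69 (0.20, adjusted p = 0.0364). Without NOD NK array 2, which had the high granulocyte sum, none of the 3 passed, at 0.36, 0.39 and -0.64, and without NOD lymph node T cell array 1 none passed either, at 0.59, 0.54 and -0.51. In the same comparison 4 of 7 granulocyte, 5 of 8 macrophage, 5 of 6 B cell and all 6 NK cell markers passed as higher in NK cells. In B6g7 no member passed, where 3.52% of probe sets did; Ifi202b differed there by -0.07 (0.19) and Ifi207 by 0.95 (0.39, adjusted p = 0.270). The test of the difference between backgrounds gave -0.68 (0.26) for 94774_at and -0.66 (0.22) for 161173_f_at, with adjusted p = 0.999 in limma for both, and 0.00805% of probe sets passed it.

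Other interferon genes gave a separate reading of the response in the same arrays. Of 38 listed type I interferon-induced genes, 25 were measured, and none passed between backgrounds in infiltrate, spleen, pancreatic T cells or NK cells. Their median difference (B6g7 minus NOD) was 0.22 in infiltrate, -0.07 in spleen, 0.73 in pancreatic T cells, -0.30 in lymph node T cells and 0.08 in NK cells, against -0.02, 0.02, -0.02, 0.04 and -0.00 over all probe sets. In lymph node T cells 1 gene passed as higher in B6g7, the surface protein gene Ly6e, by 2.08 (standard error 0.32, limma adjusted p = 0.00908). Of 13 measured genes of interferon receptors, kinases and factors, 1 passed in any of the 5 populations, the transcription factor gene Irf8, which was 2.13 lower in B6g7 pancreatic T cells (-2.13, standard error 0.31, limma adjusted p = 0.00556).

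The measured genes of DNA sensing and the inflammasome were 7 of 17, and none passed between backgrounds in any of the 5 populations. Against pancreatic T cells, 4 of the 7 were higher in the NOD infiltrate and 3 in the B6g7 infiltrate. The inflammatory caspase gene Casp1 rose by 1.51 in NOD (standard error 0.21, limma adjusted p = 0.000263) and 2.25 in B6g7 (0.24, adjusted p = 1.22e-05). Il1b, the cytokine that Casp1 cleaves, rose by 2.22 (0.33) and 1.70 (0.37), and Casp4 by 0.88 (0.22) and 1.49 (0.24). Samhd1, a nucleotide hydrolase, passed in NOD alone at 1.01 (0.26, adjusted p = 0.0384), and in B6g7 stood at 0.49 (0.29, adjusted p = 0.536). The macrophage markers rose in the same comparisons, 6 of 8 in NOD and 5 of 8 in B6g7.

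The cluster lies in 1 block of chromosome 1. None of its measured neighbours passed between backgrounds, but only 0.0483% (NK cells) to 0.274% (infiltrate) of all probe sets did. The absence of a call therefore does not set the neighbours apart from other genes. The gene table of GRCm38.p6 places 17 genes and pseudogenes in the order Ifi206, Ifi214, Ifi213, Ifi209, Ifi208, Gm18752, Gm7871, Ifi207, Ifi204, Ifi203-ps, Mndal, Gm21031, Ifi211, Ifi203, Ifi202b, Gm18445 and Ifi205. The 10 measured genes before it, from Pea15a to Ackr1, and the 10 after it, from Mptx1 to Itpkb, were followed in the 5 background comparisons. In infiltrate their differences ran from -0.70 to 0.30 and in spleen from -0.54 to 0.21. In lymph node T cells they ran from -0.82, at the adenylosuccinate synthase gene Adss (limma adjusted p = 0.261), to 0.93, at Apcs. Within the cluster, Ifi202b and Ifi209 lie at opposite sides of Ifi207 and Ifi204. Both were chosen for their differences, which have opposite directions and lie in separate populations. Over the 10 group means Ifi202b and Ifi209 correlated at -0.15.

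**Figure D5:**
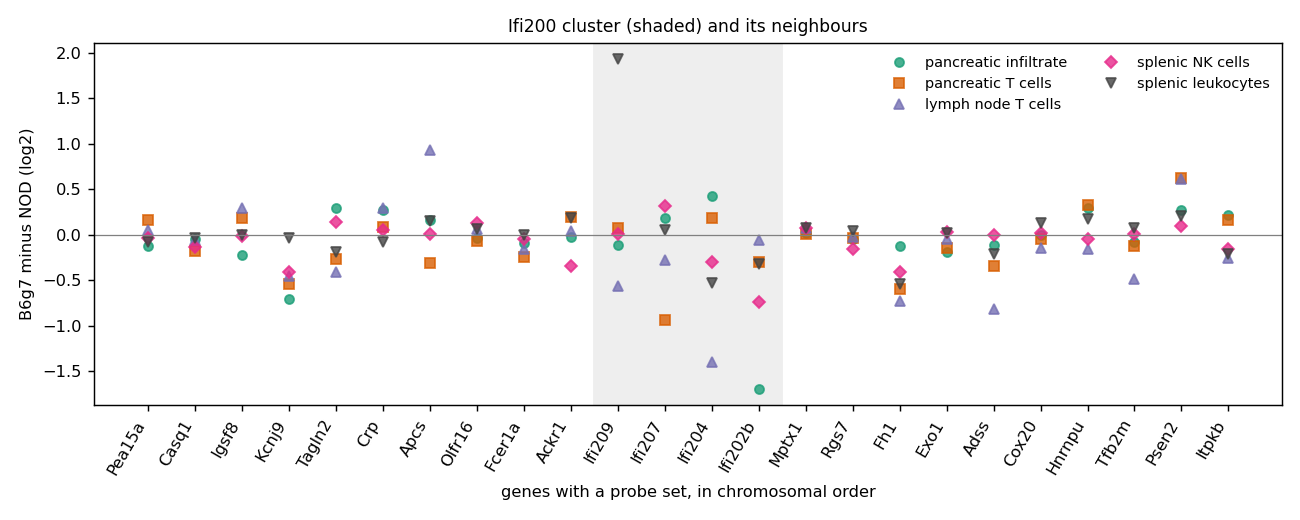
Background difference (B6g7 minus NOD, log2) of the 4 family genes with a probe set of their own (shaded) and of 10 measured genes on either side, in chromosomal order, with 1 symbol per cell population. The flanking genes stay between -0.82 and 0.93. Ifi209 in spleen (1.93) and Ifi202b in infiltrate (-1.69) lie outside that range, but these are the values that chose these genes. Ifi204 in lymph node T cells (-1.40) and Ifi207 in pancreatic T cells (-0.94) also lie outside it, and neither passed.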

How the data were processed

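RNA of sorted mouse leukocytes was measured on 24 oligonucleotide arrays. The authors deposited 1 table of linear probe set intensity, used as deposited. The submitters' processing notes name RMA (robust multi-array average) for 11 arrays; neither the RMA version nor the steps behind the other 13 are stated there. The smallest intensity was 5.70 and array medians ran from 35.1 to 39.1, so log2 was taken with no pseudocount. The number of arrays limits the precision. The median differences over all probe sets lay within 0.1 of 0 in every comparison.

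Of its 12488 probe sets, 66 were controls and were not fitted. Probe sets were named from the array's annotation after updating its symbols by Entrez identifier to those of RefSeq GRCm38.p6, which gave 10833 probe sets exactly 1 gene, 396 several and 1193 none. The 10 group means were fitted in R 4.3.3 by limma 3.58.1, using lmFit and eBayes over all 24 arrays, which leaves 14 residual degrees of freedom. For each of 15 comparisons p-values, all two-sided, were adjusted by Benjamini-Hochberg over 12422 probe sets, and an adjusted p under 0.05 passed. The script was tested on simulated data.

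All probe sets of the family were named whatever their values; listed genes were named where they passed, the smallest p first, and the 5 most alike genes by Pearson correlation. Members and lists were chosen with earlier results of these data known. Ifi202b and Ifi209 carry no p in 5 comparisons that use infiltrate or spleen arrays, a stricter rule than first set down, chosen later. For a listed or neighbouring gene with several probe sets, that with the highest mean stood for it. No 2 arrays held identical values. Same-numbered NOD T cells of pancreas and lymph nodes deviated together (0.34, 0.36 and 0.29 over all probe sets). Same-numbered arrays of different backgrounds gave -0.04 to 0.65, so these correlations do not show that the numbers pair samples. The labels state no pairing, and the NOD T cell arrays numbered 2 differ in age, at 24 days in pancreas and 22 in lymph nodes. Promoters were aligned with Biopython 1.88.

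Alternatives were quantile normalization, median centring, a filter on the 40% dimmest probe sets, a robust prior with a trend, the compared groups only, a replicate block, serial code runs (codes at most 5 apart) as a block, and each array left out in turn. Leaving out the 6 arrays with liver transcripts was added after seeing the data. Where an alternative leaves a group with 1 array, that array is assumed to vary like the other groups.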

Additional observations from a re-analysis of the deposited data

Results flagged for a closer look

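Ifi209 (103615_at) differed between backgrounds to an unlike degree in 2 populations. Its background difference in the total infiltrate minus that in splenic leukocytes was -2.05 log2 units (standard error 0.28). Both B6g7 spleens were above both NOD spleens while the infiltrates overlapped. The probe set of Ifi203 had the same order of arrays, at -0.05 (0.58), so that order does not set Ifi209 apart. The Ifi209 value was the largest in size of the 9 members, ahead of -1.38 (0.25) for Ifi202b. Both genes were chosen from the contrasts that make up this value, so that rank follows from the choice. The spleen contrast chose Ifi209, so its value is a description and no p-value is given. As each array was left out, the Ifi209 value ran from -2.20 to -1.91. Without the arrays carrying liver transcripts, with 1 B6g7 infiltrate left, it was -1.74.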

How the results depend on the processing

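Of 379 recomputed values of tested members, 342 kept their sign and call, 28 lost and 2 gained a call, and 7 changed sign. Of 189 untested values, 184 kept their sign, 5 changed it, and 8 moved beyond the replicate spread. The values whose sign changed were at most 0.11 in size in the main analysis. The difference of 161173_f_at between backgrounds in pancreatic T cells turned from 0.02 to -0.06 with the replicate block and ran from -0.08 to 0.17 as arrays were left out. Likewise Ifi202b in lymph node T cells ran from -0.10 to 0.01 and Ifi209 in NK cells from -0.13 to 0.16. The untested sign changes were of Ifi209, in infiltrate between backgrounds (-0.11; 0.02 without B6g7 infiltrate 1, 0.12 within 1 serial code run) and between B6g7 infiltrate and pancreatic T cells (-0.06; 0.07 without that array), both 0.20 without the arrays carrying liver transcripts. The number of members that passed between NOD NK cells and lymph node T cells fell from 3 to 0 with the 40% dimmest probe sets left out, which removes both Ifi202b probe sets and Ifi209, to 1 with the compared groups only (98465_f_at, -1.08, adjusted p = 0.0317), and to 0 without the arrays carrying liver transcripts; it ran from 0 to 2 as arrays were left out. That between B6g7 infiltrate and pancreatic T cells fell from 1 to 0 under quantile normalization, median centring, the compared groups only, the replicate block (Ifi207, 1.25, adjusted p = 0.0820) and without the arrays carrying liver transcripts, where 1 array stood against 1; it ran from 0 to 1. Between NOD pancreatic and lymph node T cells the number ran from 0 to 1, with 94224_s_at at -1.71 (adjusted p = 0.0190) without pancreatic array 3. With the replicate block, Ifi202b between NOD NK and lymph node T cells stood at 0.56 (adjusted p = 0.0628). The causes of the changes were not tested. Low signal limits Ifi202b and Ifi209 in most groups, and 2 or 3 arrays a group limit all tests.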
